A study of Homo sapiens with 2 samples.

Results

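Complex III is the step of the mitochondrial respiratory chain that takes electrons from ubiquinol, passes them to cytochrome c and pumps protons across the inner membrane. Its cytochrome b is made from mitochondrial DNA, while its other subunits are made from nuclear genes. NRF-1, a nuclear respiratory factor, binds a GC-rich palindrome found in many promoters of the respiratory chain. AATF is a cofactor of transcription, which the study examined as a partner of NRF-1.

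The 10 genes described here are 9 nuclear subunits of complex III (CYC1, UQCRFS1, UQCRC1, UQCRC2, UQCRB, UQCRQ, UQCRH, UQCR10 and UQCR11) and BCS1L, which inserts the Rieske iron-sulphur protein during assembly. They were taken as a fixed list of names out of 19794 coding genes, with no measured value used as a criterion. The list was nonetheless chosen with earlier results of these data known. NRF-1 ChIP-seq peaks came from the human glioblastoma cell line U251 after transient transfection of either a control siRNA (siControl) or 1 siRNA oligonucleotide that targets AATF (siAATF). The sample labels name U251, while the design text names U138. The experiment is described as done in duplicate, but each condition is given here by 1 list of peaks, so no replicate spread exists and no difference between the lists could be tested. The lists held 18014 siControl and 18454 siAATF peaks, and the number of reads behind them is unknown. Peak lists do not measure RNA or protein, so neither the depletion of AATF nor the identity of the line could be checked from them.

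Every complex III gene carried an NRF-1 peak at its promoter, in both lists. A promoter was the stretch of 1 kb either side of any coding transcript start. The count was 10 of 10 genes in siControl (exact 95% interval 69.2% to 100%, counting error only) and 10 of 10 in siAATF, while 61.1% and 60.7% of all coding genes had such a peak. Each gene had 1 promoter peak per list, and the peaks of both lists overlapped for 10 of 10 genes, against 58.4% of all coding genes. With a stricter −log10 q of at least 5, 9 of 10 genes kept a peak in each list, beside 51.5% of coding genes in each. The exception was UQCRQ, at 3.69 in siControl and 4.96 in siAATF.

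The letters under these peaks divided the genes. The NRF-1 core was searched as a palindrome of 10 bases, the arm TGCGC preceded by its own reverse complement GCGCA, which reads alike on both strands. No member peak held the core exactly, while 3.89% of genes with a promoter peak did so in siControl and 3.96% in siAATF. Allowing 1 mismatch, 6 of 10 member peaks (interval 26.2% to 87.8%) held it in each list, beside 23.9% and 24.0% of all genes with a promoter peak. A control palindrome with the same bases, the arm TCGGC preceded by its reverse complement, was in 0 of 10 member peaks with up to 1 mismatch, beside 4.89% and 4.88% of genes with a promoter peak, and also in 0 of 10 exactly, beside 0.0909% and 0.108%.

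The genomic sequence around these cores is shown for 5 genes, because 4 of them carry the same word on 1 strand or the other. Each line runs 5′ to 3′ in the direction of the gene, read from GRCh37 (hg19), with the core positions in capitals. Substitutions are given as the base of the core, its position counted from 1 at the 5′ end, and the base of the site.
UQCRC1 (chr3:48647087-48647156, minus strand, A5C): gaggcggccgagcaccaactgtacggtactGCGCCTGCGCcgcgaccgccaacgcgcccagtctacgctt
UQCRFS1 (chr19:29704050-29704119, minus strand, A5C): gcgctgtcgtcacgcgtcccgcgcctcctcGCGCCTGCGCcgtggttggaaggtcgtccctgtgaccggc
UQCR11 (chr19:1605441-1605520, minus strand, A5G then A5C): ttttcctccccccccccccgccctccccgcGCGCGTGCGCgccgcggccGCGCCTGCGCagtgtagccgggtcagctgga
UQCR10 (chr22:30163320-30163378, plus strand, T6G): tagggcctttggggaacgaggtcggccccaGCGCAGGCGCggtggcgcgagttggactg
UQCRC2 (chr16:21964316-21964385, plus strand, C10G): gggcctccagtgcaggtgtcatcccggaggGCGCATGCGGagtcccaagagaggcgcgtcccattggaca

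The core with A5C and the core with T6G are the same word read on opposite strands. This word was present in UQCRC1, UQCRFS1, UQCR11, UQCR10 and, with A5C, UQCRB, so 5 of 10 member peaks held it (interval 18.7% to 81.3%) in each list. It was held by 9.94% of all siControl genes with a promoter peak and by 10.01% of those of siAATF. The word was singled out after the substitutions of the members had been seen. The UQCRC2 site differs at its last base instead and belongs to none of these.

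These words lay close to the transcript starts. The core ended 1 bp upstream of the canonical start in UQCR11, which had a further copy 29 to 20 bp upstream. In UQCR10 it ran from 8 bp upstream to 1 bp past the start. It lay 31 to 22 bp upstream in UQCRFS1, 47 to 38 bp in UQCRC1 and 100 to 91 bp in UQCRB. UQCRC2 stood apart, with its site 336 to 327 bp upstream.

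The peaks of the other genes had no core at up to 1 mismatch. A match with 2 mismatches, shown for comparison, was present in UQCRQ and BCS1L, and CYC1 had one too. With these, 9 of 10 member peaks matched at up to 2 mismatches in each list, beside 67.3% of siControl and 67.2% of siAATF genes with a promoter peak. UQCRH had no match at up to 2 mismatches, and its line shows in capitals a CCAAT box and, on the opposite strand, the word CCGGAAG, which ETS factors such as GABP are known to bind.
UQCRQ (chr5:132202068-132202137, plus strand, A5C and G7C): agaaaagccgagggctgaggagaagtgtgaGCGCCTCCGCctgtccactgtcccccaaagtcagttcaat
BCS1L (chr2:219524388-219524435, plus strand, C2T and T6G): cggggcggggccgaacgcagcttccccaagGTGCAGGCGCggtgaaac
UQCRH (chr1:46769270-46769390, plus strand): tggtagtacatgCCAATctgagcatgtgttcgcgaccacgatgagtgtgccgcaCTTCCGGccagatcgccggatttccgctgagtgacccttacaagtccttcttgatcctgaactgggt

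Other short words were searched on both strands in a window of 300 bases, from 250 bp before the canonical start to 50 bp counted from it. The word CCGGAAG was in the window of UQCRQ, UQCRH and UQCR11, 3 of 10 genes, beside 14.1% of 19514 promoters. CCAAT was in 5 of 10, beside 36.0%, and the GC box GGGCGG in 5 of 10, beside 61.8%. In the same window the NRF-1 core with up to 1 mismatch was in 5 of 10 genes and in 10.6% of promoters. These are letters in a window, not bound sites.

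The strength of a peak was read in 2 ways. The −log10 q gives the significance of the peak in its own library, and the fold enrichment gives its ratio over the local background of that library. In the broad form of these lists both are averages over the whole called region, not values at its summit. They can therefore depend on where the edges of a peak were drawn, and ranking does not remove this. Because both depend on the library, each was turned into a percentile rank within its own list, from 0 for the weakest peak to 100 for the strongest.

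**Figure D1:**
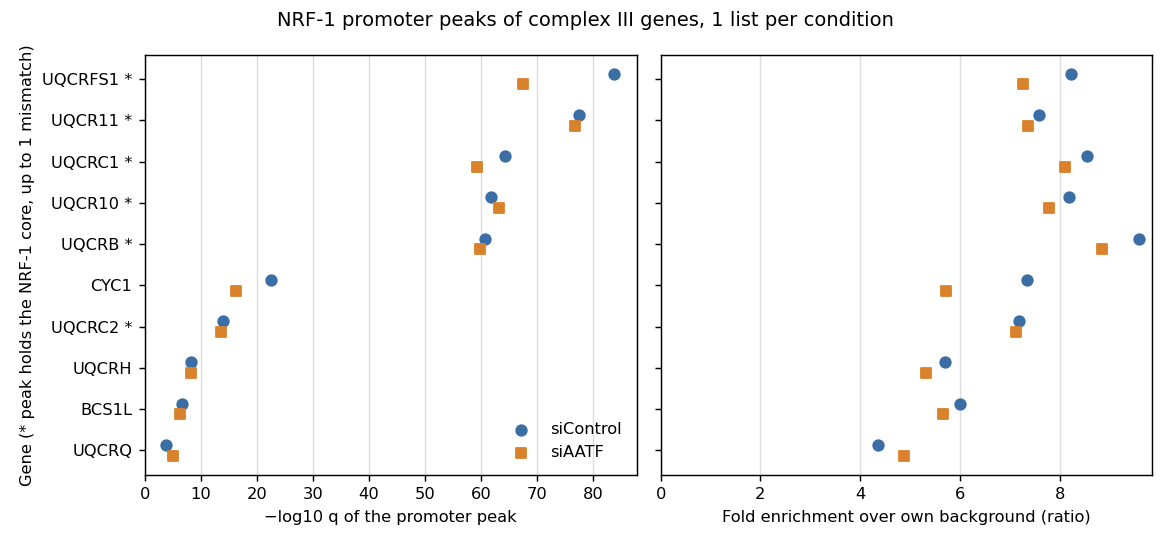
Values of the promoter peak of each complex III gene, with −log10 q on the left and fold enrichment (a ratio) on the right, circles for siControl and squares for siAATF, 1 list per condition. An asterisk marks genes with the core, of which 5 have a −log10 q between 59.2 and 83.7, and UQCRC2 lies at 13.95 and 13.6 among the genes without it.

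The Rieske protein and cytochrome c1 carry the redox centres made from nuclear genes. UQCRFS1, the Rieske iron-sulphur protein, had the highest −log10 q of the 10 genes in siControl, 83.7, and 67.4 in siAATF. Its peak, from 29703501 to 29704511 of chromosome 19 in siControl and from 29703486 to 29704561 in siAATF, was enriched 8.23-fold and 7.27-fold. CYC1, cytochrome c1, which hands the electron to cytochrome c, had a −log10 q of 22.5 in siControl and 16.2 in siAATF. Its peak, from 145149533 to 145150337 of chromosome 8 and from 145149412 to 145150380, was enriched 7.34-fold and 5.72-fold. CYC1 was thus far below UQCRFS1 in significance in both lists, and nearer to it in fold enrichment in siControl than in siAATF.

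The core proteins form the matrix arm of the complex. UQCRC1 had a −log10 q of 64.2 in siControl and 59.2 in siAATF, with a fold enrichment of 8.54 and 8.10, at percentile ranks by fold enrichment of 86.9 and 87.2 (chromosome 3, 48646582 to 48647527 and 48646592 to 48647539). UQCRC2 had a −log10 q of 13.95 and 13.6, with a fold enrichment of 7.19 and 7.13. Its peaks, on chromosome 16 at 21963805 to 21964632 in siControl and 21963983 to 21964678 in siAATF, ended 50 bp and 4 bp before the canonical start. UQCRC2 was the member whose peak did not reach its canonical start in either list.

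The small subunits covered the whole range. UQCRB, which lies near the ubiquinone site, had the highest fold enrichment of the 10 genes in both lists, 9.60 in siControl and 8.84 in siAATF, at ranks of 95.9 and 94.5. Its peak began at 97247387 on chromosome 8 in both lists and ended at 97248224 and 97248256. UQCR11 had a −log10 q of 77.5 and 76.7 (chromosome 19, 1604906 to 1605989 and 1604897 to 1605945), and UQCR10 had 61.8 and 63.2 (chromosome 22, 30162815 to 30163842 and 30162810 to 30163858). These peaks were among the stronger ones of either list by significance, with ranks by −log10 q from 89.3 to 97.8.

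UQCRH and UQCRQ were the weakest subunit genes. UQCRH, the hinge protein beside cytochrome c1, had a −log10 q of 8.28 in siControl and 8.15 in siAATF, at fold enrichments of 5.69 and 5.31 (chromosome 1, 46768694 to 46769411 and 46768708 to 46769454). UQCRQ had the lowest values of the 10 genes in both lists, a −log10 q of 3.69 and 4.96 and a fold enrichment of 4.36 and 4.89 (chromosome 5, 132201881 to 132202967 and 132201874 to 132202681). BCS1L, the assembly factor, lay beside them with a −log10 q of 6.67 and 6.27 and a fold enrichment of 5.99 and 5.67. Its peaks on chromosome 2, at 219524233 to 219524607 and 219524156 to 219524697, were also the narrowest, 375 bp and 542 bp, where the members had a median width of 892 bp and 909 bp.

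The order of the genes by −log10 q was nearly the same in both lists. UQCRFS1, UQCR11, UQCRC1, UQCR10 and UQCRB held the 5 highest places in each list, in a different order, and were followed in both by CYC1, UQCRC2, UQCRH, BCS1L and UQCRQ in that order. Spearman's rho between the lists was 0.952 for −log10 q and also 0.952 for fold enrichment, over 10 genes, each of which lends both lists much the same stretch of sequence. With no replicate, neighbours in these orders cannot be told apart. The widest gap between neighbours lay just above CYC1, from UQCRB at 60.7 to CYC1 at 22.5 in siControl and from UQCRC1 at 59.2 to CYC1 at 16.2 in siAATF.

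The median ranks of the group lay above those of all genes with a promoter peak, without a test of that difference. Some of the counts below lay near the share of all such genes. The median rank by fold enrichment was 72.8 in siControl and 74.7 in siAATF, where all genes with a promoter peak had medians of 63.4 and 64.4. By −log10 q the medians were 79.6 and 77.8, beside 65.04 and 66.1. A rank by fold enrichment above 50 was reached by 8 of 10 genes in each list, beside 66.1% and 67.3% of genes with a promoter peak, and one above 90 by UQCRB alone, beside 13.9% and 14.3%. A rank by −log10 q above 50 was reached by 7 of 10 in each list, beside 67.8% and 69.3%. A rank by −log10 q above 90 was reached by 3 of 10 in siControl, beside 15.8%, and by 5 of 10 in siAATF, beside 16.5%, with UQCRB at 89.3 and UQCR10 at 89.6 just under it in siControl.

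Most member peaks with the core were more significant than those without it. The 6 member peaks with the core had a −log10 q from 13.95 to 83.7 in siControl (median 63.0) and from 13.6 to 76.7 in siAATF (median 61.5). The 4 without it ran from 3.69 to 22.5 (median 7.47) and from 4.96 to 16.2 (median 7.21). The ranges overlapped only through UQCRC2 and CYC1. All promoter peaks divided in the same direction, with a median of 65.5 for 2520 siControl peaks with the core against 11.1 for 9175 without it, and 59.5 against 10.7 in siAATF. Promoter peaks with the core were also wider, with a median of 1004.5 bp against 761 bp in siControl and 1033 bp against 773 bp in siAATF. A wider peak offers more places for a match, and peaks of equal width were not compared.

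**Figure D2:**
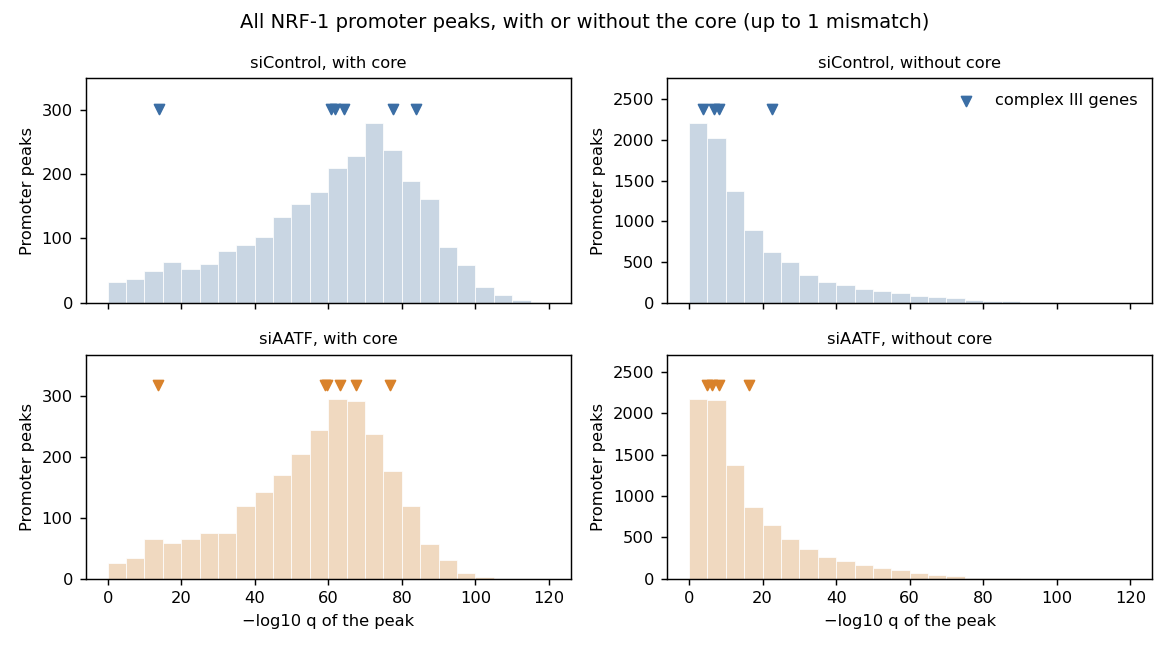
Number of promoter peaks (y axis) by −log10 q (x axis, bins of 5) in siControl and siAATF, with the core at up to 1 mismatch on the left and without it on the right; triangles mark the complex III genes. Of the 6 members with the core, 5 lie at 59.2 or above in both lists, and UQCRC2 lies at 13.95 in siControl and 13.6 in siAATF.

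Among the member peaks with the core, UQCRC2 stood apart in position and in significance, and less so in fold enrichment. Its ranks by fold enrichment were 69.0 in siControl and 73.7 in siAATF, beside medians of 79.3 and 78.4 for all promoter peaks with the core. Its −log10 q of 13.95 lay below the 10th percentile of siControl promoter peaks with the core, 26.1, and its 13.6 lay below that of siAATF, 24.9. Its peak centre was at −463.5 bp from the start in siControl and at −351.5 bp in siAATF. A lncRNA gene, ENSG00000274460, overlaps the same peaks. This is not particular to UQCRC2, because lncRNA genes also overlap the peaks of UQCRB, UQCRFS1 and UQCR10 in both lists. The centres of the other 5 peaks with the core were within 52 bp of the start in both lists.

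**Figure D3:**
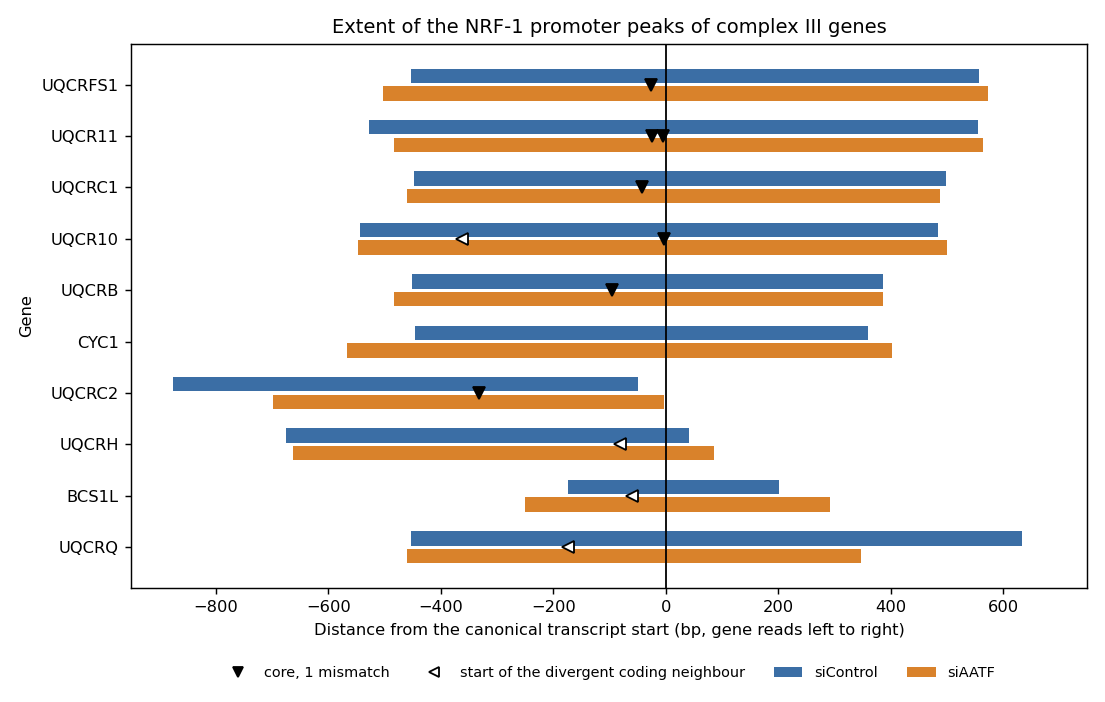
Extent of each promoter peak in bp from the canonical transcript start, with the gene read from left to right, siControl above siAATF; filled triangles are cores with 1 mismatch and open triangles are starts of coding genes that run the other way. In 9 of 10 genes the peak spans the start in both lists, and the UQCRC2 peaks end 50 bp and 4 bp before it.

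Peaks covered the canonical start in 9 of 10 genes in each list, beside 83.6% and 84.7% of genes with a promoter peak. In those 9 genes the whole of exon 1 was covered in both lists, except in UQCRH, where 42 of 123 bp were covered in siControl and 85 bp in siAATF. GC content ran from 50.4% in UQCRB to 76.3% in CYC1 in siControl, where all genes with a promoter peak had a median of 67.7%. The UQCRB peak held a core, and 1.06% of siControl promoter peaks had a lower GC content.

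The promoters of 4 members are shared with a coding gene on the opposite strand. The peak also covered the start of GDF9 beside UQCRQ (173 bp between starts), LRRC41 beside UQCRH (82 bp), ZMAT5 beside UQCR10 (362 bp) and ZNF142 beside BCS1L (60 bp). This is 4 of 10 genes in each list, where 24.7% of genes with a promoter peak shared it with another coding promoter in both. Of the 4 shared peaks, UQCR10 alone held the core, and the other 3 were the weakest peaks of the group by −log10 q. A peak over such a pair cannot be assigned to either gene. The UQCRH peaks in particular had their centres at −317.5 bp and −289 bp from the UQCRH start, inside LRRC41. The UQCR11 peaks also overlap another coding gene, ENSG00000267059, in both lists. It had no coding transcript start within 1 kb of them and is not counted here.

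The study asked whether depletion of AATF alters NRF-1 at the promoters of respiratory chain genes. A rank within its own list cannot show a loss or gain shared by all peaks, so only movement relative to other peaks is described. The median fold enrichment of the members was 7.46 in siControl and 7.20 in siAATF, beside 6.74 and 6.49 for all genes with a promoter peak. Those values depend on the library, and their difference was not tested. In rank, complex III genes moved in both directions, most widely CYC1 by fold enrichment and UQCRQ by −log10 q. By fold enrichment 5 genes ranked lower in siAATF and 5 higher, with a median change of −0.428 points. By −log10 q 3 ranked lower and 7 higher, with a median change of 1.23 points, so the direction of the median depended on the measure. The change was within 5 points for 7 of 10 genes by fold enrichment, beside 48.4% of 11065 promoter pairs that overlapped 1 to 1, and for 8 of 10 by −log10 q, beside 67.0%.

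CYC1 had a rank by fold enrichment of 71.02 in siControl and 52.4 in siAATF, a change of −18.7 points. This lay outside the range from the 5th to the 95th percentile of these pairs, −16.8 to 17.6 points, and 3.77% of those pairs fell as far. That range leaves out the pairs beyond those percentiles by definition, and CYC1 was singled out as the widest member change by this measure. Being outside the range therefore does not set CYC1 apart from other promoters. By −log10 q its rank was 69.97 and 64.5, a change of −5.48 points, as far as 13.3% of the pairs fell. The CYC1 peak did not become narrower, measuring 805 bp in siControl and 969 bp in siAATF. Whether its greater width in siAATF bears on its rank was not tested.

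By fold enrichment, UQCRQ and UQCRFS1 had the next widest changes. UQCRQ ranked 25.2 in siControl and 37.9 in siAATF by fold enrichment, 12.7 points higher, as did 10.1% of pairs, and by −log10 q it was 9.53 points higher. Its peak lost 286 bp at the downstream edge and measured 1087 bp and 808 bp, and whether this width bears on its rank was not tested either. UQCRFS1 ranked 83.2 and 75.7 by fold enrichment, 7.42 points lower, as did 17.8% of pairs, and 97.5 and 94.8 by −log10 q. The remaining 7 genes changed by at most 4.66 points by fold enrichment.

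**Figure D4:**
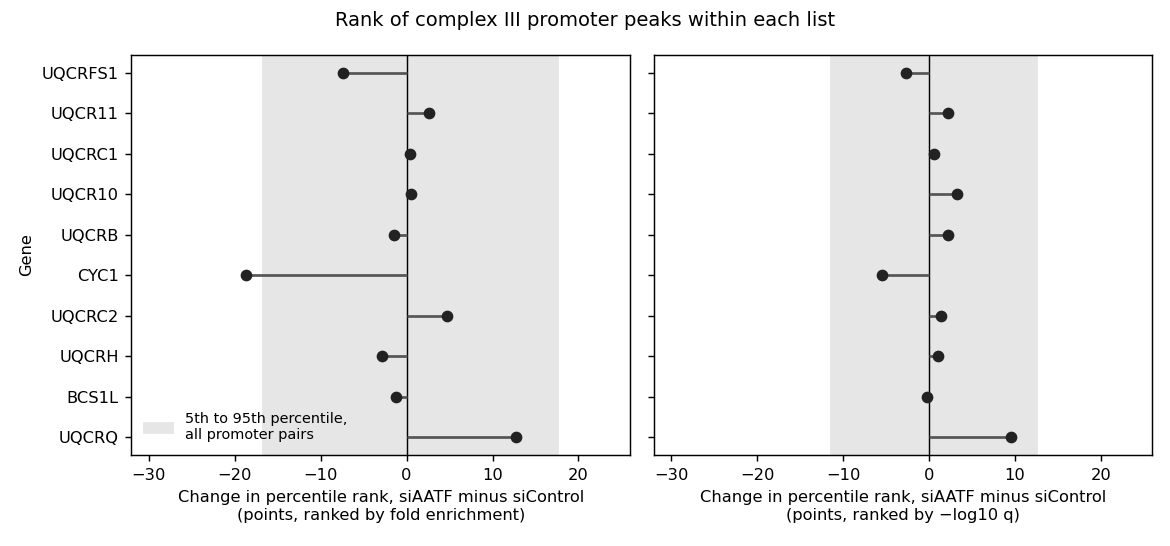
Change in percentile rank, siAATF minus siControl, of each complex III gene, in points, ranked by fold enrichment on the left and by −log10 q on the right; the grey band runs from the 5th to the 95th percentile of all 11065 promoter pairs. CYC1, at −18.7, is the 1 value outside the band, on the left, and all 10 lie inside it on the right.

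The peaks themselves coincided between lists. The overlap covered 100% of the siControl peak in UQCRB, UQCRFS1, UQCR10, CYC1 and BCS1L, and at least 73.7% in every gene. It covered between 69.2% and 99.1% of the siAATF peak. The edges of both lists were 12 bp and 10 bp apart in UQCRC1 and 5 bp and 16 bp apart in UQCR10, while UQCRC2 had an upstream edge 178 bp closer to the gene in siAATF. All 10 pairs also overlapped reciprocally by at least 50%.

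Several of these genes have copies elsewhere in the genome. Of 13 annotated copies, UQCRHL and 12 processed pseudogenes named after a member, 1 had a peak within 1 kb, in both lists. It was UQCRFS1P1, a processed copy of the UQCRFS1 mRNA that lies inside the span of ENTHD1 on chromosome 22. The peak ran from 40271209 to 40271588 in both lists, 380 bp wide with identical edges. It had the highest fold enrichment of the whole siControl list, 14.9, and the sixth place in siAATF, 12.7, with a −log10 q of 39.4 and 29.2.

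The sequence under that peak was nearly that of UQCRFS1. A local alignment joined 289 bp of the peak to positions 39 to 327 of the UQCRFS1 transcript without a gap, with 285 identical bases (98.6%). Of these, 209 bp correspond to exon 1 of UQCRFS1, which the promoter peak of UQCRFS1 covers whole, and 80 bp to exon 2, which lies outside it. The other 91 bp of the peak did not align to the transcript, and the peak held no core at up to 2 mismatches. Whether reads of UQCRFS1 and of its copy were told apart in the alignment was not tested.

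Genes that work beside complex III were examined in the same way, as lists. Of 8 complex III assembly factors, 8 had a promoter peak in each list, and 4 of these peaks held the core with up to 1 mismatch. Over all coding genes 61.1% in siControl and 60.7% in siAATF had a promoter peak, and 23.9% and 24.0% of those held the core. By fold enrichment they ran in siControl from LYRM7 at rank 20.8, a chaperone of the Rieske protein, to UQCC1 at 90.97, a factor for cytochrome b. Their median ranks were 77.3 in siControl and 73.1 in siAATF, with 5 genes lower and 3 higher. By −log10 q the medians were 86.3 and 86.4, with 2 lower and 6 higher, so the direction turned with the measure. No test compared the list with the subunits.

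Among 12 genes for cytochrome c, its haem lyase and the enzymes of coenzyme Q, 11 were marked by a promoter peak in each list. The shares of all coding genes were 61.1% and 60.7%. HCCS, the haem lyase, had a peak in siControl alone (rank 10.5, −log10 q 1.84), and PDSS2, which helps to make the side chain of coenzyme Q, had one in siAATF alone (rank 16.5, −log10 q 2.23). COQ6 ranked highest in siControl, at 96.9. The core was in 2 peaks of each list, beside 23.9% and 24.0% of all genes with a promoter peak. Of the 10 genes with a peak in both lists 8 ranked lower in siAATF and 2 higher by fold enrichment, while by −log10 q the split was 5 and 5. CYCS, cytochrome c itself, named after its values were seen, had a −log10 q of 90.4 and 85.8 without a core at up to 1 mismatch. A peak of these lists could therefore be highly significant without those letters.

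The genes of the neighbouring complexes were nearly all marked too. All 4 complex II genes had a promoter peak in each list, 3 of them with the core, from SDHC at rank 56.95 to SDHD at 95.9 in siControl. Of 11 complex IV genes, 10 had a peak in each list and 3 held the core, from COX4I1 at rank 16.3 to NDUFA4 at 97.5 in siControl, and COX7B had none. These counts stand beside 61.1% and 60.7% of all coding genes with a promoter peak, of which 23.9% and 24.0% held the core. The median ranks by fold enrichment were 83.05 and 77.9 for complex II and 82.3 and 81.6 for complex IV, beside 72.8 and 74.7 for complex III. By −log10 q they were 88.5 and 87.9 for complex II and 72.03 and 71.6 for complex IV, beside 79.6 and 77.8 for complex III, which thus lay below complex IV by 1 measure and above it by the other. No test of these differences was made.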

How the data were processed

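NRF-1 ChIP-seq libraries of U251 cells were made by ChIPmentation, in which a transposase adds the adapters to the immunoprecipitated chromatin. Per the labels, the authors used Bowtie2, MACS2 and hg19. The methods of the study name an ATAC-seq pipeline at its defaults, and neither an input library nor the pooling of the stated duplicates is given in the sources used here. The start and end of each peak, the fold enrichment (a ratio over the local background) and the −log10 p and −log10 q were deposited by the authors in broadPeak form. The display score deposited by the authors is the −log10 q times 10, truncated, and was not used. All peaks of chromosomes 1 to 22, X and Y ended within GRCh37.

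Analyses used Python 3.11.15, numpy 2.4.6, scipy 1.17.1, pandas 2.3.3 and pysam 0.24.0, with starts from GENCODE release 44 mapped to GRCh37. Peaks overlapped at 1 base or more. Where a promoter had several peaks, the 1 with the highest fold enrichment was taken. Ranks, overlaps and word searches were tested on simulated data. The genes, lists and tests were chosen with earlier results of these data known. All 10 genes were named, and of other lists those without a peak and those with the highest or lowest rank. Coordinates are 1-based. Intervals are exact Clopper-Pearson. Depth is unknown.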

Additional observations from a re-analysis of the deposited data

How the results depend on the processing

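Of 108 values over 20 results under 12 other settings, 66 stayed equal or, for counts, within 1.5 times, and 42 moved. When only peaks at a −log10 q of 5 or more were used, which leaves 9 of the 10 genes with ranks among fewer peaks, the median rank was 62.4 in siControl and 63.7 in siAATF, and the median change −2.27 points. Ranked by −log10 q they were 79.6, 77.8 and 1.23, so the median change turned its sign. Ranked among promoter peaks alone they were 65.7, 67.4 and −0.979. The exact core and the control palindrome gave 0 and 0 member peaks in each list, in place of 6. Promoters of 500 bp or 2 kb and the canonical start alone changed no count and no median. Under these settings each gene kept the same peak, and a rank over the whole list cannot move when the peak is the same. They supplied most of the values that stayed equal, so that tally says little about robustness. The word with A5C on either strand was an alternative chosen after seeing the data, and gave 5 and 5. The change of CYC1 ranged from −28.6 to −5.48 points and that of UQCRFS1 from −11.5 to −2.68, while UQCRB (−2.27 to 2.21) and UQCRH (−5.23 to 1.09) crossed 0. The cause was not tested. No paired analysis was possible because each condition had a single list. Unknown depth limits what a missing weak peak can show.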

Other observations

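Further peaks lay within 5 kb of member genes, outside their promoters. Downstream of UQCR11, 3.69 kb past its end, both lists held a peak at the promoter of MBD3, a methyl-CpG-binding protein, on chromosome 19 at 1591960 to 1593477 in siControl and 1591919 to 1593434 in siAATF. Its −log10 q was 83.99 and 78.8, above the 77.5 and 76.7 of the UQCR11 promoter peak, while its fold enrichment was lower, 5.68 and 5.54 against 7.59 and 7.37. The 2 measures thus ordered these neighbouring peaks in opposite ways in both lists. The MBD3 peaks lie in the same coding gene, ENSG00000267059, that overlaps the UQCR11 promoter peaks. Downstream of UQCRC1, 2.91 kb past its end, siAATF alone held a weak peak at the promoter of COL7A1, a collagen gene, on chromosome 3 at 48633079 to 48633526, with a −log10 q of 1.32.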
